A study of Mus musculus with 2 samples.

Results

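The promoters of the cytosolic ribosomal protein genes were examined in frontal cortex of female B6CASTF1/J mice, the F1 hybrid of a C57BL/6 and a CAST strain, at 36 days of age, by DNase-seq. In this assay DNase I cuts nuclear DNA where it is exposed, runs of frequent cutting are called as peaks, and short protected stretches inside them are called as footprints. The genes were taken by symbol, as every protein-coding gene of GENCODE M21 on chromosomes 1 to 19 named Rpl, Rps or Rplp followed by a number and at most 1 letter, without the Rps6k kinases. This gave 75 of 20807 protein-coding genes, spread over 18 chromosomes, of which 43 were Rpl genes, 29 Rps genes and 3 Rplp genes. There was 1 group of 2 libraries, replicate 2 and replicate 1, with no treatment and no other tissue. Both libraries carry the same donor label with separate tissue records, so the spread between them may be technical.

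The cytosolic ribosome is built from a small and a large subunit, whose proteins carry the names Rps and Rpl, and it makes nearly all proteins of the cell. Its genes are active in every cell type, neurons included, where ribosomes also serve protein synthesis in dendrites. Their messenger RNAs typically begin with a C and a run of pyrimidines, the terminal oligopyrimidine or TOP element, through which the mTORC1 kinase controls their translation. Mammalian ribosomal protein promoters are known to lie in CpG islands, mostly to lack a canonical TATA box, and to be bound by ETS-family factors such as GABPA.

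The stretch from 130 bases before to the first 20 bases of the principal transcript is shown for the 3 genes with the highest promoter peak signal, to let the protected bases be read beside the values. Capitals mark bases inside a footprint of the library named, positions count from the start base as 0, and the build is GRCm38/mm10. A motif on the opposite strand reads as its reverse complement, CTTCCG for the ETS core and CCGCCC for SP/KLF. Rplp0, the base of the acidic stalk that recruits elongation factors, is on the plus strand at chr5:115559337-115559486.
Rplp0, replicate 2: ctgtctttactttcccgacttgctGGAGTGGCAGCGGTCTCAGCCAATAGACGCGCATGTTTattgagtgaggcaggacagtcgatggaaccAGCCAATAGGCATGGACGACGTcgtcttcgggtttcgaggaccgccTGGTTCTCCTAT
Rplp0, replicate 1: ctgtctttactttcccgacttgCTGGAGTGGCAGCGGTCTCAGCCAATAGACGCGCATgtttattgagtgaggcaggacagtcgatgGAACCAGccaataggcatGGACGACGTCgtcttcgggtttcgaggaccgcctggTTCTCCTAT
Rps12, a protein of the small subunit, is on the minus strand at chr10:23787256-23787405.
Rps12, replicate 2: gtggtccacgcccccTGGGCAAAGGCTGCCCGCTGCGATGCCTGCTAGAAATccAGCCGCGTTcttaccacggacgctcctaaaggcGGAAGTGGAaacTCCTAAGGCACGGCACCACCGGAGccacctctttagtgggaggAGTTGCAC
Rps12, replicate 1: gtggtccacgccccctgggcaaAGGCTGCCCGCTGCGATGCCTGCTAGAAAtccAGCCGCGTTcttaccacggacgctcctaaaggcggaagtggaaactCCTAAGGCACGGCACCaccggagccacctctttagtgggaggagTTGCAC
Rpl7a, a protein of the large subunit, is on the plus strand at chr2:26910634-26910783.
Rpl7a, replicate 2: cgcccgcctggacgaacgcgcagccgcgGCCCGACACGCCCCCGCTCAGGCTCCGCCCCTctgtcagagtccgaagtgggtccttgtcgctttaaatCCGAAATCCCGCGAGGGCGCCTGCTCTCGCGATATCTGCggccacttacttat
Rpl7a, replicate 1: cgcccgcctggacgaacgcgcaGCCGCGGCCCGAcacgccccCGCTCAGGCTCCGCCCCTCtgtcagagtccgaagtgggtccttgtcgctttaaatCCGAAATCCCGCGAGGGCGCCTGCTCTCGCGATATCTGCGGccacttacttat
The Rplp0 promoter held 3 footprints in this stretch in replicate 2 and 4 in replicate 1. Its CCAAT letters, the NFY motif, occurred from position -87 to -83 and from -36 to -32. The match at -87 was centred in a footprint of both libraries, and the match at -36 only in one of replicate 2. Rps12 held 5 footprints in replicate 2 and 4 in replicate 1, and its ETS core CGGAAG, at -44 to -39, was centred in a footprint of replicate 2 and not of replicate 1. The GGGCGG letters of Rpl7a, the SP/KLF motif, at -78 to -73, were centred in a footprint of both libraries.

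The same stretch follows for Rpl34 and Rplp2, which were among the genes with the most footprints in the promoter peak. Rpl34, a protein of the large subunit, is on the minus strand at chr3:130730379-130730528.
Rpl34, replicate 2: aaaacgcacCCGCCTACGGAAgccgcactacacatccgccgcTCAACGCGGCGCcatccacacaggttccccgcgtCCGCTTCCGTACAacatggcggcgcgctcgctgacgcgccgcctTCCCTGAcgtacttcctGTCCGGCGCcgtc
Rpl34, replicate 1: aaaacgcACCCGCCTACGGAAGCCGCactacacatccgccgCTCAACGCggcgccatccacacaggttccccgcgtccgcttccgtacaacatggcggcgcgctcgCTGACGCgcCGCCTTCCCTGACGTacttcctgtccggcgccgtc
Rplp2, which forms the acidic stalk with Rplp1 on Rplp0, is on the plus strand at chr7:141447240-141447389.
Rplp2, replicate 2: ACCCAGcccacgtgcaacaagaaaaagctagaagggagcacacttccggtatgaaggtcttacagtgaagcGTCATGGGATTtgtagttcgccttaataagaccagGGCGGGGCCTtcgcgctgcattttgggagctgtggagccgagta
Rplp2, replicate 1: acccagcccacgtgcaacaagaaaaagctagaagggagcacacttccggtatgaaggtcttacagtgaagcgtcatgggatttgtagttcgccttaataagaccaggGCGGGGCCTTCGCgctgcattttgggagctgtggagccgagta
Rpl34 held ETS cores at -114 to -109 and at -51 to -46. The first was centred in a footprint of both libraries and the second in one of replicate 2 alone. In Rplp2 the SP/KLF letters at -25 to -20 were centred in a footprint of both libraries, which left out their first base or bases, while the ETS core at -88 to -83 and the E-box letters CACGTG at -122 to -117 were centred in a footprint of neither. RefSeq places the start of Rplp2 281 bp further downstream.

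Promoter peaks were present at nearly all of the genes. A promoter peak was the peak with the highest signal among those that overlapped 500 bp to either side of an annotated start of the gene. It was found for 72 of the 75 genes in replicate 2, against 61.2% of all protein-coding genes, and for the same 72 in replicate 1, against 52.2%. Both libraries together had a peak at 96.0% of the ribosomal protein genes and at 52.0% of all protein-coding genes. The longer of the authors' peak lists gave the same 72 genes, against 59.2% of all. Windows of 250 and of 1000 bp also gave 72, so no gene lay just outside the limit.

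The 3 genes without a promoter peak in either library were Rpl10l, Rpl39l and Rpl3l, which are later-arisen copies of Rpl10, Rpl39 and Rpl3. Rpl3l is known for its expression in heart and skeletal muscle, and Rpl10l and Rpl39l for theirs in the male germ line. None of the 3 had a base with an FDR of 0.001 or less within 500 bp of its principal start, where the FDR is the authors' value for local cleavage above background. The parent gene of Rpl3l did have a peak, and the Rpl3 signal was 5.57 in replicate 2 and 3.90 in replicate 1. Rps27l, the remaining member whose symbol ends in l, a copy of Rps27 that p53 induces, had a peak, its signal being 4.21 in replicate 2 and 2.27 in replicate 1. Rps27 itself had 4.22 in replicate 2 and 2.49 in replicate 1, close to these values.

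Signal, the authors' depth-normalized density per peak, was higher at these promoters than at most others. In replicate 2 the 72 genes had a median signal of 5.47 (lowest 2.45, highest 10.7), against 3.58 over the 12738 protein-coding genes with a promoter peak. In replicate 1 the median was 3.20 (lowest 1.19, highest 7.15), against 2.30 over 10852 genes. The mean of these medians was 4.34 ± 1.60 for the ribosomal protein genes and 2.94 ± 0.909 for all protein-coding genes (SD, n = 2 libraries). The ribosomal protein genes stood above the all-gene median in both libraries, but their range lay within that of all genes. Within each library the difference between the sets was smaller than that between the libraries for the ribosomal protein genes. Of the 72, 65 in replicate 2 and 63 in replicate 1 exceeded the median of all genes, and 40 in replicate 2 and 38 in replicate 1 exceeded the upper quartile. In replicate 2 none lay under the lower quartile, and in replicate 1 there were 3, Rpl6, Rps26 and Rps10. The peak lists had medians of 1.17 in replicate 2 and 1.34 in replicate 1, and promoter peaks in general ranked high in them. In the top 10% of the list were 61 of the 72 peaks in replicate 2, 84.7% against 46.2% of all genes with a promoter peak, and 38 in replicate 1, 52.8% against 25.5%. In bulk tissue a signal does not tell apart more cells with an open promoter from more cutting per cell.

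**Figure D1:**
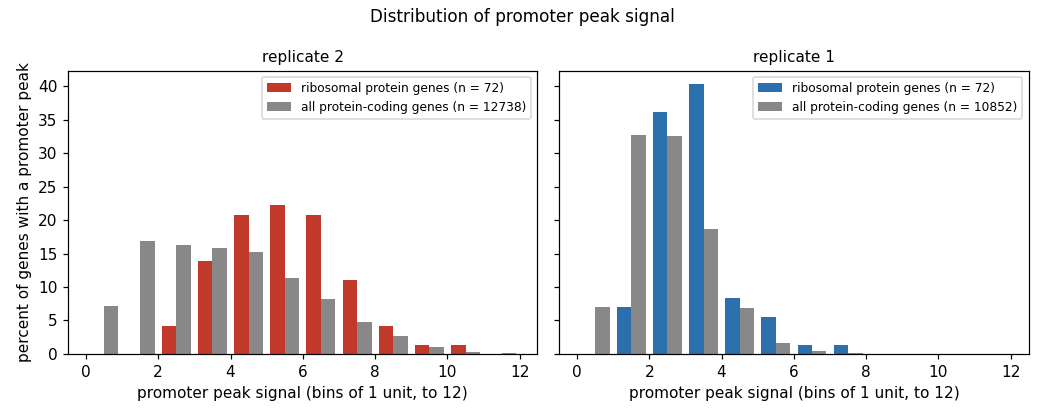
Share of genes with a promoter peak (y axis, percent) by signal in bins of 1 unit (x axis, up to 12), for the ribosomal protein genes in colour and all protein-coding genes in grey, replicate 2 at left and replicate 1 at right. No ribosomal protein gene lay under a signal of 2 in replicate 2 or under 1 in replicate 1, while 7.22% of all genes lay under 1 in replicate 2 and 7.04% in replicate 1.

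Related gene families with housekeeping roles also had promoter peaks at nearly all members, with lower median signals. The mitochondrial ribosomal protein genes, whose products translate the messages of mitochondrial DNA, had a peak in both libraries at all 78, with median signals of 4.31 in replicate 2 and 2.43 in replicate 1. The proteasome subunit genes, which encode the main protein-degrading complex, had one at 36 of 38, with medians of 4.48 in replicate 2 and 2.60 in replicate 1. In both libraries the order was the same, with the cytosolic ribosomal protein genes first, the proteasome genes next and the mitochondrial ribosomal protein genes after them, although the differences between the medians were smaller than the difference between the libraries.

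Rplp0 of the acidic stalk led the list. It had the highest signal of all 72 in both libraries, 10.7 in replicate 2 and 7.15 in replicate 1 (mean 8.92 ± 2.50, SD, n = 2). Its peak at chr5:115559281-115559520 ranked 61st of 66512 peaks in replicate 2 and its peak in replicate 1 ranked 39th of 29700. Rplp1 had 6.35 in replicate 2 and 3.37 in replicate 1, and Rplp2 had 6.34 in replicate 2 and 3.99 in replicate 1, so the 3 stalk genes were all above the members' medians, with Rplp0 well apart from the other two.

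After Rplp0 the highest mean signals were those of Rps12, Rpl7a, Rpl26 and Rpl23. Rps12 had 9.08 in replicate 2 and 6.07 in replicate 1, and Rpl7a had 8.01 in replicate 2 and 5.95 in replicate 1. Rpl26, which in human cells also binds p53 messenger RNA, had 7.92 in replicate 2 and 5.62 in replicate 1, and Rpl23, a large-subunit protein that binds Mdm2, had 8.48 in replicate 2 and 5.07 in replicate 1. The order of Rpl7a, Rpl26 and Rpl23 changed between the libraries, so these neighbours did not differ beyond their spread.

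Among the lowest signals were those of Rps10, Rps26, Rpl4 and Rpl6. Rpl6 had 2.45 in replicate 2 and 1.19 in replicate 1, and Rpl4 had 2.56 in replicate 2 and 1.64 in replicate 1. Rps26, a small-subunit protein whose gene is mutated in some patients with Diamond-Blackfan anaemia, had 2.90 in replicate 2 and 1.34 in replicate 1. Rps10, mutated in the same human disease, had 3.50 in replicate 2 and 1.56 in replicate 1. All 4 were below the all-gene median of both libraries. Genes of both subunits occurred at either end of the order. The 40 Rpl genes with a peak had medians of 5.36 in replicate 2 and 3.12 in replicate 1, and the 29 Rps genes had 5.40 in replicate 2 and 3.32 in replicate 1.

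**Figure D2:**
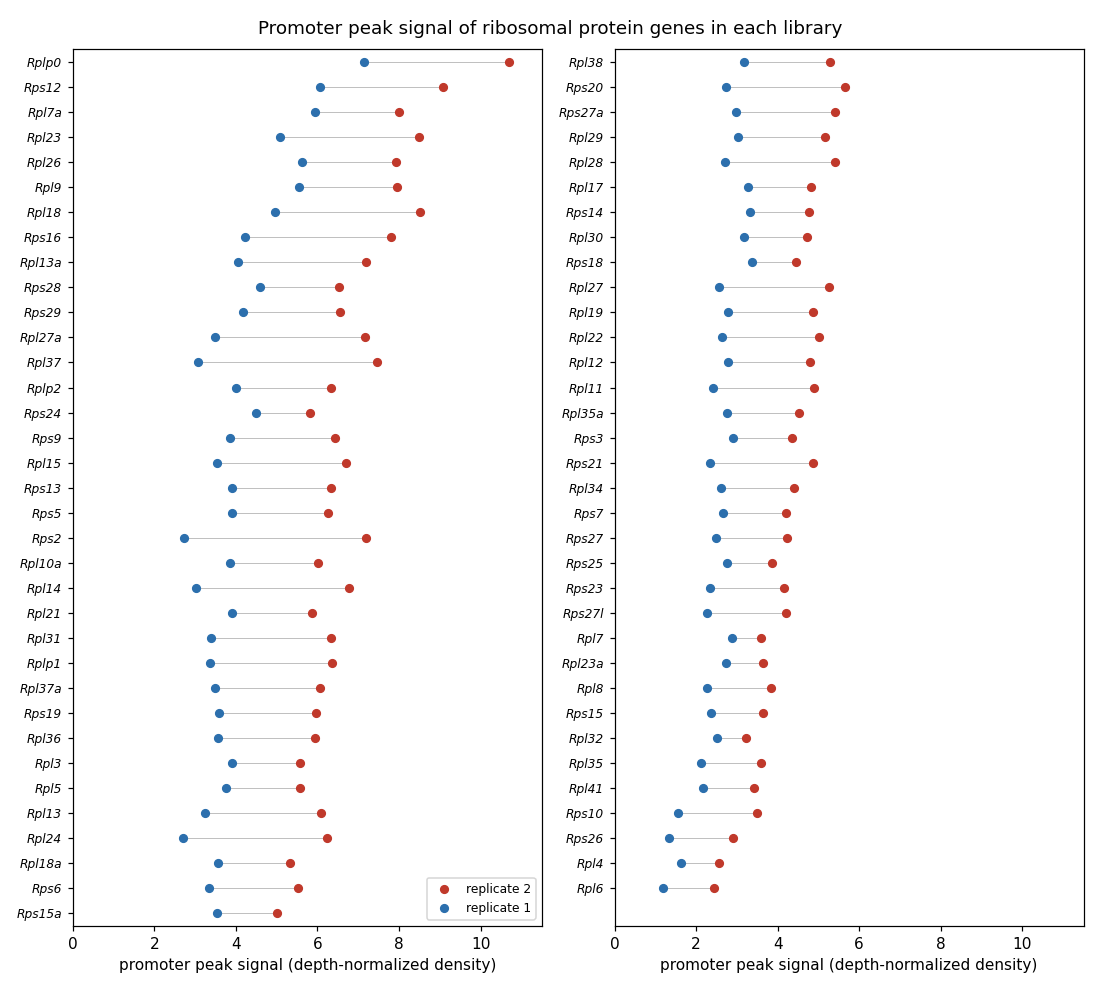
Promoter peak signal (x axis, authors' depth-normalized density) of 69 of the 72 ribosomal protein genes with a peak (y axis), ordered by their mean signal from Rplp0 at the top left to Rpl6 at the bottom right, with 1 point per library joined by a line. The replicate 2 point lies above the replicate 1 point in value for every gene shown.

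The order of the genes was largely shared by the libraries. Across the 72 genes the log2 signals had a Pearson r of 0.88, and the Spearman rho was 0.83; the points share the tissue, the donor label and the genome, and this is a description across genes. In 71 genes the promoter peaks of the libraries overlapped, and signal was higher in replicate 2 in all 71, as it was at 99.3% of 10346 overlapping promoter peaks of all protein-coding genes. The median log2 ratio of replicate 2 over replicate 1 was 0.74 for the ribosomal protein genes (0.32 to 1.40) and 0.80 for all genes, a median fold of 1.67 for the ribosomal protein genes against 1.74. The general difference between the libraries was thus also present in these genes, and at about the same size.

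The largest log2 ratios were 1.40 for Rps2, 1.28 for Rpl37 and 1.22 for Rpl24. Rps2, a small-subunit protein at the messenger RNA entry, showed 7.19 signal units in replicate 2 and 2.72 in replicate 1, and Rpl37 had 7.45 in replicate 2 and 3.06 in replicate 1. The smallest were 0.32 for Rpl7, 0.36 for Rpl32 and 0.37 for Rps24. Rpl7 had 3.59 in replicate 2 and 2.87 in replicate 1, and Rps24, mutated in some patients with Diamond-Blackfan anaemia, had 5.82 in replicate 2 and 4.50 in replicate 1. In Rps26 the highest peaks did not overlap: the midpoint lay at -104 bp from the principal start in replicate 2 and at 276 bp in replicate 1, so its signals belong to different peaks.

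The promoter peaks lay close to the start, and their widths were near those of other genes. Their median width was 240 bp in replicate 2 and 270 bp in replicate 1, against 260 bp in both libraries for all protein-coding genes. The widest by the mean of the libraries were those of Rps19, with 700 bp in replicate 2 and 440 bp in replicate 1, Rpl30, with 480 bp in replicate 2 and 600 bp in replicate 1, and Rps21, with 400 bp in replicate 2 and 480 bp in replicate 1. Rps19 encodes a small-subunit protein and is the gene most often mutated in Diamond-Blackfan anaemia. The width of a single gene's peak could differ between the libraries, as the peak of Rps18 spanned 80 bp in replicate 2 and 400 bp in replicate 1; this gene was picked after its values were seen. A single promoter peak was found at 58 genes in replicate 2, 80.6% against 55.6% of all genes with a promoter peak, and at 54 in replicate 1, 75% against 64.5%. The remaining 14 genes in replicate 2 and 18 in replicate 1 had more than 1.

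The midpoint of the promoter peak lay a median of 47.0 bp from the principal start in replicate 2 and 61.0 bp in replicate 1, against 97.5 bp in replicate 2 and 99.5 bp in replicate 1 for all genes with a peak. It was 39.5 bp in replicate 2 and 48.5 bp in replicate 1 for the mitochondrial ribosomal protein genes. The proteasome genes had 56.0 bp in replicate 2 and 69.0 bp in replicate 1, so a short distance was not particular to the cytosolic ribosomal protein genes. Of the 72 genes, 47 in replicate 2 and 46 in replicate 1 had it within 100 bp, shares of 65.3% against 50.7% of all genes with a peak in replicate 2 and of 63.9% against 50.1% in replicate 1. The peak covered the start base itself in 56 genes in replicate 2 and 57 in replicate 1. These shares were 77.8% against 67.2% in replicate 2, and 79.2% against 62.3% in replicate 1, where the second value is over all protein-coding genes with a peak in both libraries. Midpoints fell on either side, with 42 upstream of the start in replicate 2, 58.3% against 60.6% of all genes with a peak, and 37 in replicate 1, 51.4% against 60.6%. Measured to the nearest annotated start of the gene, the medians were 39.0 bp in replicate 2 and 37.5 bp in replicate 1, against 61.5 bp in replicate 2 and 62.5 bp in replicate 1 for all genes.

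The farthest peaks from the principal start were those of Rpl18, Rpl4 and Rpl35, and for Rpl18 and Rpl35 RefSeq gives a start nearer to the peak. In Rpl18, a large-subunit protein, the peak at chr7:45717901-45718140 lay 2560 bp downstream of the principal GENCODE start in replicate 2 and 2550 bp in replicate 1. The RefSeq start of Rpl18 lies 2614 bp downstream of the same point, and relative to it the peak midpoints were at -50.5 bp in replicate 2 and -60.5 bp in replicate 1. In Rpl35 the distances were 454 bp in replicate 2 and 444 bp in replicate 1, and the RefSeq start was 493 bp downstream of the principal start. In Rpl4 the midpoint lay upstream in both libraries, at -454 bp, in a promoter shared with Zwilch. Of 55 members found in the RefSeq promoter table, 13 had the same start in both annotations and 20 had starts within 10 bp of each other.

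At 14 of the 72 genes the start of another protein-coding gene lay within 500 bp of the promoter peak, a share of 19.4% against 21.5% of the 10816 genes with a peak in both libraries. These pairs were Rpl12 with Lrsam1, Rpl15 with Nkiras1, Rpl18 with Sphk2, Rpl35 with Arpc5l, Rpl35a with Iqcg, Rpl4 with Zwilch, Rpl7a with Med22, Rpl9 with Lias, Rps10 with RPS10-NUDT3, Rps18 with Vps52, Rps25 with Trappc4, Rps27 with Rab13, Rps27a with Clhc1 and Rps28 with Ndufa7. The partners have varied roles, among them a Mediator subunit (Med22), a sphingosine kinase (Sphk2), lipoic acid synthesis (Lias) and respiratory complex I (Ndufa7). Signal at the shared promoters spanned nearly the whole range, with 8.51 in replicate 2 and 4.96 in replicate 1 at Rpl18, 7.94 in replicate 2 and 5.55 in replicate 1 at Rpl9, and 2.56 in replicate 2 and 1.64 in replicate 1 at Rpl4. DNase signal at such a promoter cannot be assigned to either gene. Without these 14 genes, 58 of 61 had a peak in both libraries and the mean of the median signals was 4.41.

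The authors' FDR of local cleavage gave the extent of the open stretch. Within 500 bp of the principal start, 72 of the 75 genes had at least a base with an FDR of 0.001 or less in both libraries, against 57.7% of all protein-coding genes in replicate 2 and 49.2% in replicate 1. Where there was any, the median extent was 768 bp in replicate 2 and 596 bp in replicate 1, against 706 bp in replicate 2 and 538 bp in replicate 1 for all genes. The start base itself passed in 71 genes (94.7%) in replicate 2 and 65 (86.7%) in replicate 1, against 51.2% of all genes in replicate 2 and 41.3% in replicate 1. In the related families it passed about as often or more often. The shares were 100% in replicate 2 and 98.7% in replicate 1 for the mitochondrial ribosomal protein genes, and 92.1% and 86.8% for the proteasome genes. Rps12 passed over 1001 bp in both libraries, the whole stretch looked at, and Rpl35, whose start annotations differ, over 266 bp in replicate 2 and 216 bp in replicate 1; these 2 genes were picked after their values were seen.

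**Figure D3:**
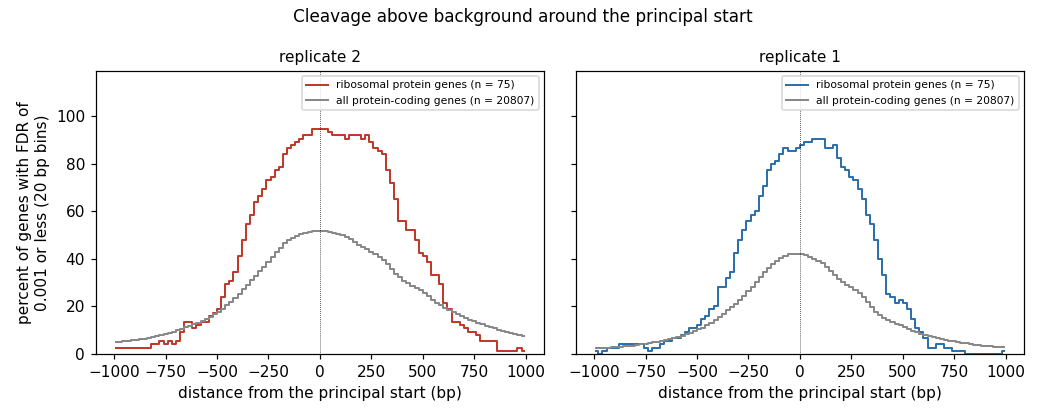
Percent of genes with an FDR of 0.001 or less (y axis) in bins of 20 bp by distance from the principal start (x axis, bp), for the 75 ribosomal protein genes in colour and all 20807 protein-coding genes in grey, replicate 2 at left and replicate 1 at right. The ribosomal protein genes reached 94.7% at the start in replicate 2 and 90.7% between 60 and 120 bp downstream in replicate 1, against maxima of 51.8% in replicate 2 and 42.2% in replicate 1 for all genes.

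Every promoter peak of the 72 genes held a footprint in both libraries. Peaks without a footprint were rare over all genes too, 279 of 12738 in replicate 2 and 377 of 10852 in replicate 1, so this is close to the background. The median was 5 footprints per peak in replicate 2 and 5 in replicate 1, against 5 in replicate 2 and 4 in replicate 1 for all genes. A median of 26.6% of the bases of the promoter peak lay in footprints in replicate 2 and 18.0% in replicate 1, against 21.7% in replicate 2 and 16.3% in replicate 1 for all genes. The ribosomal protein genes had 361 footprints in replicate 2, with a median width of 11 bp, and 338 in replicate 1, with a median width of 10 bp. At least 3 footprints were found in 65 of the peaks in replicate 2, 90.3% against 84.2% of all genes, and in 62 in replicate 1, 86.1% against 74.4%. At least 8 were found in 10 peaks in replicate 2, 13.9% against 13.6%, and in 7 in replicate 1, 9.72% against 8.39%, both close to the share over all genes.

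Among the most footprints by the mean of the libraries were those of Rpl34, with 8 in replicate 2 and 10 in replicate 1, and Rplp2, with 11 in replicate 2 and 7 in replicate 1. Among the fewest were those of Rpl6, with 4 in replicate 2 and 1 in replicate 1, and Rps3, with 2 in replicate 2 and 3 in replicate 1. Rpl6 was also among the genes with the lowest signal, while Rps3, a small-subunit protein at the messenger RNA entry channel, showed 4.36 signal units in replicate 2 and 2.90 in replicate 1. Counts moved with peak width, with a Spearman rho across the 72 genes of 0.65 in replicate 2 and 0.58 in replicate 1, and less with signal, with 0.17 in replicate 2 and 0.33 in replicate 1. Counts of single genes were poorly shared by the libraries, with a rho of 0.21. Rps14 had 10 footprints in replicate 2 and 2 in replicate 1, and Rpl13a had 8 in replicate 2 and 1 in replicate 1. Other genes had more in replicate 1, such as Rps18, with 1 in replicate 2 and 6 in replicate 1, and Rpl7, with 2 and 7. The peaks could differ in width as well, as that of Rpl13a spanned 420 bp in replicate 2 and 240 bp in replicate 1. These genes were picked after their values were seen.

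Footprints of the libraries were also compared by position. In the stretch that the peaks of both libraries cover, 197 of 322 footprints of replicate 2 (61.2%) overlapped a footprint of replicate 1, against 53.6% for all genes. In the other direction it was 210 of 293 (71.7%), against 67.9%. The start base itself lay in a footprint in 21 of 72 genes in replicate 2 and 11 in replicate 1, a share of 29.2% against 22.2% in replicate 2 and of 15.3% against 16.1% in replicate 1, the second value being over all genes with a peak in both libraries. The share was above the background in replicate 2 and below it in replicate 1.

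**Figure D4:**
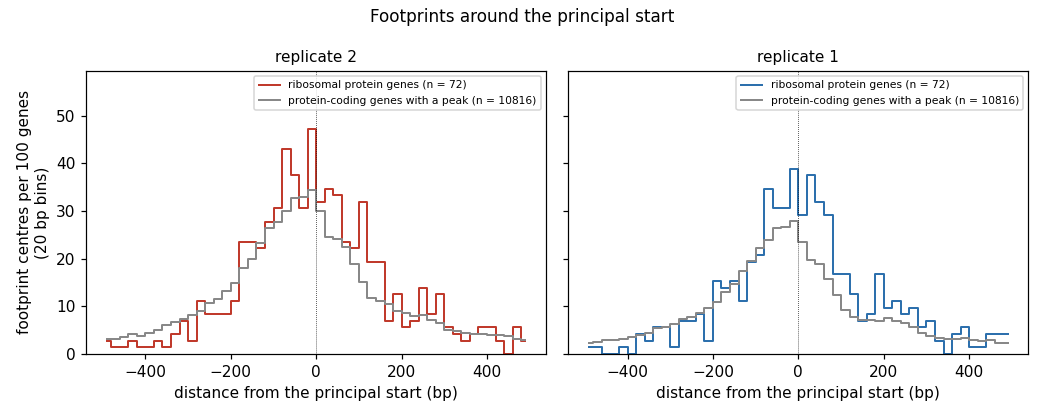
Footprint centres per 100 genes (y axis) in bins of 20 bp by distance from the principal start (x axis, bp), for the 72 ribosomal protein genes in colour and the 10816 protein-coding genes with a peak in both libraries in grey, replicate 2 at left and replicate 1 at right. Both sets had their highest bin in the 20 bp before the start, at 47.2 for the ribosomal protein genes and 34.5 for all genes in replicate 2, and at 38.9 and 27.9 in replicate 1.

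The sequence around the start, which the choice of genes did not use, was searched for exact matches on both strands from 250 bp before the principal start to 50 bp after it. The ETS core CGGAAG occurred in 44 of the 75 promoters, or 58.7%, against 21% of all protein-coding genes. Among genes with a promoter peak in both libraries it was 59.7% of 72 ribosomal protein genes and 33.0% of 10816. The share was 57.7% of the mitochondrial ribosomal protein genes and 55.3% of the proteasome genes. Genes with the match included Rps12, Rpl26, Rpl23 and Rpl7a of the highest signals and Rps10, Rps26, Rpl4 and Rpl6 of the lowest, and Rplp0, the highest of all, had none. Within the promoter peak of replicate 2 the match occurred in 55.6% of the ribosomal protein genes and 37.2% of all genes with a peak.

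The other motifs showed smaller differences in share. GGGCGG, bound by SP and KLF factors, occurred in 37 of the 75 promoters, 49.3%, against 46.2% of all genes, and in 50% of those with a peak, against 64.8%. CCAAT, bound by NFY, occurred in 30.7% against 38.2%, and CACGTG, the E-box bound by MYC and USF factors, in 12% against 7.78%. Among genes with a peak in both libraries the E-box was found in 12.5% against 10.4%, and from 100 bp before the start in 4.17% against 6.51%, so its direction depended on the window. AAGATGGC, bound by YY1, and TGACGTCA, bound by CREB and ATF factors, each occurred in 5 promoters, 6.67%, against 3.12% of all genes for AAGATGGC and 2.48% for TGACGTCA. With a peak in both libraries it was 6.94% of the ribosomal protein genes for each, against 5.08% for AAGATGGC and 3.98% for TGACGTCA. AAGATGGC was found in 14.1% of the mitochondrial ribosomal protein genes and 15.8% of the proteasome genes. GCGCATGCG, bound by NRF1, occurred in 2 promoters, those of Rpl10a and Rpl37a, 2.67% against 2.24% of all genes, and 2.78% against 3.98% of those with a peak. TATAAA at 40 to 20 bp before the principal start occurred in 0 of the 75, against 2.93% of all genes and 0.952% of those with a peak in both libraries. These windows had a median GC content of 55.7%, against 56.3% of all genes. Among genes with a peak in both libraries GC content was lower in the ribosomal protein genes, 55.8% against 61.0%. The ratio of observed to expected CpG was 0.855, against 0.573 of all genes, and with a peak 0.859 against 0.785. ETS and SP/KLF matches overlapped each other in 2 of the ribosomal protein promoters.

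**Figure D5:**
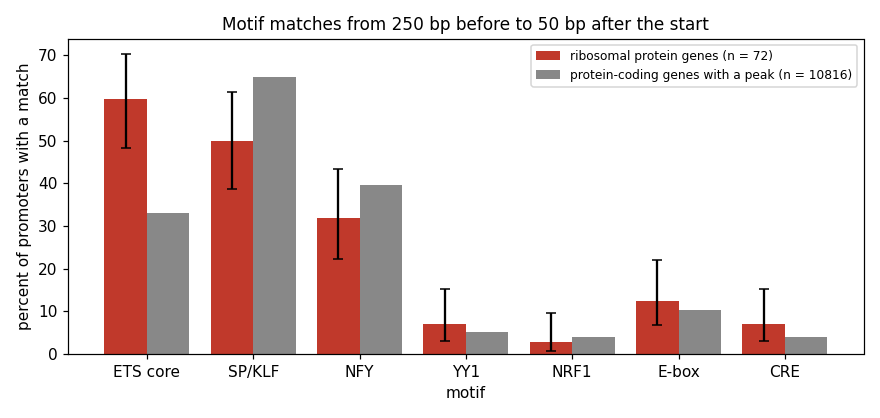
Percent of promoters with an exact match (y axis) for 7 motifs (x axis), for the 72 ribosomal protein genes with a peak in both libraries in red, with 95% Wilson intervals as error bars, and the 10816 protein-coding genes with a peak in both libraries in grey. The ETS core stood at 59.7% against 33.0%, and SP/KLF at 50% against 64.8%.

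Matches were compared with the footprints of each library. Of 71 ETS matches in the 72 promoters, 33 (46.5%) were centred in a footprint in replicate 2 and 19 (26.8%) in replicate 1, against 31.9% in replicate 2 and 21.2% in replicate 1 of the matches of all genes with a peak. Counted by an overlap of 1 bp, the share was 52.1% against 41.1% in replicate 2 and 29.6% against 29.6% in replicate 1, so the difference was then absent in replicate 1. Footprints covered 19.6% of these windows in replicate 2 and 14.2% in replicate 1, against 16.1% in replicate 2 and 11.4% in replicate 1 for all genes. Of 59 SP/KLF matches, 27 (45.8%) in replicate 2 and 20 (33.9%) in replicate 1 were centred in a footprint, against 40.2% in replicate 2 and 29.0% in replicate 1. All 4 NRF1 matches lay in footprints in both libraries, as did 93.7% in replicate 2 and 82.0% in replicate 1 of those of all genes. The 4 matches came from 2 promoters, with 2 each in Rpl10a and Rpl37a. Overlapping matches on opposite strands were counted separately, so they need not be 4 sites. Of 32 CCAAT matches, 7 (21.9%) did in replicate 2 and 1 (3.12%) in replicate 1, against 19.6% in replicate 2 and 11.4% in replicate 1. By overlap of 1 bp it was 25% against 28.2% in replicate 2 and 15.6% against 18.1% in replicate 1. Signal was higher at the ribosomal protein promoters, and its part in these shares was not tested.

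Starts were searched for the TOP element, counted as a C followed by at least 4 pyrimidines that begins within 5 bp of the principal start. It was found in 22 of the 75 genes, 29.3%, against 18.4% of all protein-coding genes. The share was 23.1% of the mitochondrial ribosomal protein genes and 21.1% of the proteasome genes. Exactly at the annotated start the element was found in 8 ribosomal protein genes, 10.7%, against 2.30% of all genes. There it was found in 5.13% of the mitochondrial ribosomal protein genes and 0% of the proteasome genes. The start base was a C in 25 genes, 33.3%, against 17.7%. RefSeq starts were tried once the first counts were known, and a gene was counted if any of its RefSeq starts had the element. By this rule 27 of the 55 matched members had it, 49.1%, against 22.0% of 15687 matched genes. The RefSeq count thus differs from the first in the genes and in the number of starts allowed, as well as in the annotation. The share in both annotations was above the background, and it depended on which starts and genes were taken.

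All the other genes of translation that were listed also had promoter peaks. Of proteins of the ribosome or bound to it whose symbols fall outside the rule, Rpsa had a signal of 5.04 in replicate 2 against 2.06 in replicate 1, Fau had 7.40 in replicate 2 and 4.36 in replicate 1, and Rack1 had 4.34 in replicate 2 and 2.78 in replicate 1. All 14 translation factors and other genes known for TOP messages had a promoter peak, with medians of 6.99 in replicate 2 and 3.49 in replicate 1. These were above the medians of the ribosomal protein genes, 5.47 in replicate 2 and 3.20 in replicate 1. Eef2, the elongation factor that moves the ribosome along, had 7.41 in replicate 2 and 3.64 in replicate 1. Npm1, a nucleolar chaperone, had 8.69 in replicate 2 and 4.31 in replicate 1. All 14 genes of ribosome biogenesis had a promoter peak too. Their medians, 4.28 in replicate 2 and 2.44 in replicate 1, were below those of the ribosomal protein genes. They were led by Nop56, a core protein of the box C/D particles that methylate ribosomal RNA, with 11.3 in replicate 2 and 6.17 in replicate 1.

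Markers of brain cells were looked at with the same rule. A promoter peak in both libraries was present for 3 of 6 excitatory neuron markers, among them Camk2a with 3.54 in replicate 2 and 1.81 in replicate 1, for 2 of 3 astrocyte markers and for 1 of 3 oligodendrocyte markers. No marker of inhibitory neurons (0 of 5), microglia (0 of 3) or endothelium (0 of 2) had one in both. The share over all protein-coding genes was 52.0%, and lists this short describe the markers named and not the cell types. Gad1, Gad2 and Slc32a1 had none in either library. Dlx2 and Pvalb of the inhibitory neurons and Aif1 of microglia had one in replicate 2 alone, with signals of 1.01, 0.874 and 1.34. Of 4 genes not expected in cortex, Alb alone had a peak, with a signal of 0.379 in replicate 2.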

How the data were processed

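DNase-seq was made from frontal cortex, 2 libraries of 1 group. The peak signal is, per the text deposited by the authors, from the narrowPeak lists of each library on mm10, and its values under 200 steps were whole multiples of 1 step, 0.00971 in replicate 2 and 0.01178 in replicate 1, within 0.02 steps. The genes' median signals, 563 steps in replicate 2 and 272 in replicate 1, lie above the values checked. The depth would be 103 M tags in replicate 2 and 84.9 M in replicate 1 if 1 step is 1 tag per M, and is otherwise unknown. The authors' cleavage table holds a p-value in the form of an FDR, up to 0.05, and the deposited footprint list has 0.01 in every row. No cut rate was given in that table, so the profile by position used the FDR. The name of the aligner was not given in the sources used here, nor were those of the callers. Coordinates are on the B6-based build, and CAST alleles were not examined.

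The shorter of the 2 peak lists per library was used (66512 peaks in replicate 2 and 29700 in replicate 1). Principal transcripts were chosen from GENCODE M21 by APPRIS level, basic tag, support level and length, and sequence came from GRCm38.p6, with RefSeq promoters for RefSeq starts. A footprint belonged to a peak that held its midpoint. Python 3.11.15, NumPy 2.4.6, pysam 0.24.0 and matplotlib 3.10.9 were used, and the scripts were tested on simulated peaks and sequence. With 1 group no test between conditions exists, and values are given as counts and medians beside all protein-coding genes, which include the ribosomal protein genes. Wilson intervals at 95% cover counting error only.

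The genes and lists were chosen with earlier results of these data known. Named genes were the 5 highest and 5 lowest by mean signal, those without a peak, the 3 extremes of footprint number, of log2 ratio, of width and of distance, the stalk genes, those ending in l and those with a shared promoter. Printed sequences come from the first 3 by signal and by footprints. Some genes that these rules select are not reported here. Alternatives covered the window, the peak list, the start, the choice of peak, subsets of genes, each library, footprint membership, motif windows and the TOP rule.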

Additional observations from a re-analysis of the deposited data

How the results depend on the processing

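Of 77 alternative values of 18 results, single libraries left aside, 69 lay within their limit and 8 moved beyond it. The limit was the spread between libraries, the Wilson interval, 1.5 times the count or, for the log2 ratio, a step of 0.1. The side of the all-gene value changed for the E-box, 4.17% against 6.51% from 100 bp before the start. The difference was gone for ETS matches in footprints of replicate 1 by overlap of 1 bp, 29.6% against 29.6%, and for width with the peak nearest to the start, 260 bp against 260 bp. The windows of 250 and 1000 bp, the midpoint rule, the longer list and the principal start alone left the count at 72 genes. They moved no median beyond its limit. For signal the spread between libraries, 1.60 around 4.34, took in the all-gene value of 2.94, and a limit of 1.5 times the count was wide for 75 genes. Lying within the limits therefore says little for these results. The signal values themselves ran from 4.32 to 4.54 over the alternatives, single libraries left aside. The all-gene median also differed between the libraries. Within each library the ribosomal protein genes had the higher median, 5.47 against 3.58 in replicate 2 and 3.20 against 2.30 in replicate 1. The median number of footprints, 5, was 4.75 with the peak nearest to the start and also without genes that share a promoter. The median distance of 54.0 bp was 38.2 bp to the nearest annotated start, and 43.2 bp without the 10 genes whose peak covered the principal start in neither library, both added after the data were seen. The share of TOP-like starts, 29.3% against 18.4% of all genes, was 10.7% against 2.30% exactly at the start. With at least 6 pyrimidines it was 20% against 6.47%. It was 49.1% of the 55 matched members when any RefSeq start could count, against 22.0% of all matched genes. Leaving out each library gave 72 to 72 genes, median signals of 3.20 to 5.47, widths of 240 to 270 bp, distances of 47.0 to 61.0 bp and 5 to 5 footprints. With 2 libraries each value lies within 1 SD of their mean by construction, so this range says nothing about stability. Width was above that of all genes in replicate 1 alone, 270 bp against 260 bp, and below it in replicate 2, 240 bp against 260 bp. No paired analysis between conditions was possible because there is 1 group.

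The libraries differ in depth-normalized signal at nearly all promoters and share a donor label, so 2 values give little hold on the spread between animals. Footprint counts moved with the width of the peak. Distances, motif windows and TOP-like starts rest on the start that the annotation names.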

Other observations

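Genes of the ribosome outside the symbol rule showed further differences, and they were picked after their values were seen. The 4 genes on chromosome X whose symbols match, Rpl10, Rpl36a, Rpl39 and Rps4x, all had a promoter peak in both libraries. The signal of Rpl36a was 4.02 in replicate 2 and 2.18 in replicate 1, Rpl10 had 3.62 in replicate 2 and 1.91 in replicate 1, Rpl39 had 2.65 in replicate 2 and 1.88 in replicate 1, and Rps4x had 2.41 in replicate 2 and 1.35 in replicate 1. All 4 lay below the medians of the autosomal genes, 5.47 in replicate 2 and 3.20 in replicate 1, in both libraries.

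Copies of ribosomal protein genes on the autosomes fell on both sides. Rps3a1, the mouse gene for the small-subunit protein Rps3a, had 8.59 in replicate 2 and 4.11 in replicate 1. The copies Rpl22l1, with 6.86 in replicate 2 and 3.76 in replicate 1, Rpl36al, with 6.11 in replicate 2 and 4.64 in replicate 1, and Rpl7l1, with 4.18 in replicate 2 and 2.03 in replicate 1, had peaks too. No promoter peak was called in either library for Rpl10-ps3, Rpl36-ps4, Rpl36a-ps1, Rpl9-ps1, Rpl9-ps6, Rps12-ps3 or Rps27rt, which GENCODE lists as protein-coding.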
